A study of Homo sapiens with 6 samples.

Results

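The genes described here are 8 members of the interleukin 10 (IL-10) and interleukin 6 (IL-6) signalling route, of 26347 genes in the count table: the receptor chains IL10RA, IL10RB, IL6R and IL6ST, the kinases JAK1 and TYK2, the transcription factor STAT3 and its feedback inhibitor SOCS3. They were chosen by function, with results of this comparison already known, so their fold changes are given as a description. All 8 passed the filter on low counts. Transcript levels were read by sequencing of total RNA from THP-1, a human monocytic leukaemia cell line grown in RPMI medium with serum, 24 h after transfection. One group of 3 libraries received a negative control microRNA mimic, and the other group of 3 received a miR-125a-5p mimic, a synthetic form of that microRNA. Macrophages are named in the title, whereas the labels describe monocytic cells and mention neither differentiation nor an added cytokine. THP-1 is a single tumour line, and the labels do not say whether the libraries came from separate cultures, so p-values measure only the spread between these libraries.

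IL-10 binds IL10RA, which pairs with IL10RB, a chain that receptors of other cytokines share. JAK1 sits on IL10RA and TYK2 on IL10RB, and both kinases lead to phosphorylated STAT3, through which IL-10 restrains inflammatory gene expression in monocytes and macrophages. IL-6 binds IL6R, which then recruits the signalling chain IL6ST (gp130), also shared by a family of cytokines, and JAK1, JAK2 and TYK2 again activate STAT3. SOCS3 is induced by STAT3 and blocks signalling at IL6ST, whereas IL10RA lacks its docking site. MicroRNAs bind messenger RNA through the seed, bases 2 to 8, mostly in the 3′ untranslated region (3′ UTR), and lower its level or translation.

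The mature microRNA is shown first because its seed defines the sites searched in the 8 genes. It is 24 bases long, and RefSeq places it on GRCh38.p14 at chr19:51693268-51693291, plus strand. Capitals mark the seed.
hsa-miR-125a-5p: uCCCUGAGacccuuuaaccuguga
The strongest site class, the 8mer, reads CTCAGGGA in the messenger RNA. The 7mer-m8 reads CTCAGGG, the 7mer-A1 TCAGGGA and the 6mer TCAGGG, searched on the transcript strand only, and each match was counted once under its longest class.

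Of the 8 genes, 4 had a match of at least 7 bases in the 3′ UTR of the GENCODE 29 transcript with the longest coding sequence. IL10RA and IL6R had 2 such matches each, all of the 7mer-m8 class, IL6ST had 1 of that class, and STAT3 had 1 of the 8mer class. These 6 windows of 30 bases are shown because they are the longest seed matches of the genes whose levels are described next. Capitals mark the match.
IL10RA first site: aggattatttgCTCAGGGgaaccatggggc
IL10RA second site: agggaggattcCTCAGGGttcccttgaaag
IL6R first site: tgccagcttatCTCAGGGgtgtgcggcctt
IL6R second site: taatacagtatCTCAGGGcctggtcgtttt
IL6ST site: aaaggtggcagCTCAGGGtgagctcttctg
STAT3 site: gtctggttgagCTCAGGGAatatggttctt
All 6 lie in the 3′ UTR of the last exon of their gene, on GRCh38. The IL10RA windows are at chr11:117999953-117999982 and chr11:118001146-118001175 on the plus strand, in exon 7. The IL6R windows are at chr1:154465462-154465491 and chr1:154465990-154466019 on the plus strand, in exon 10. The IL6ST window is at chr5:55937317-55937346 on the minus strand, in exon 17, and the STAT3 window at chr17:42314289-42314318 on the minus strand, in exon 24.

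**Figure D1:**
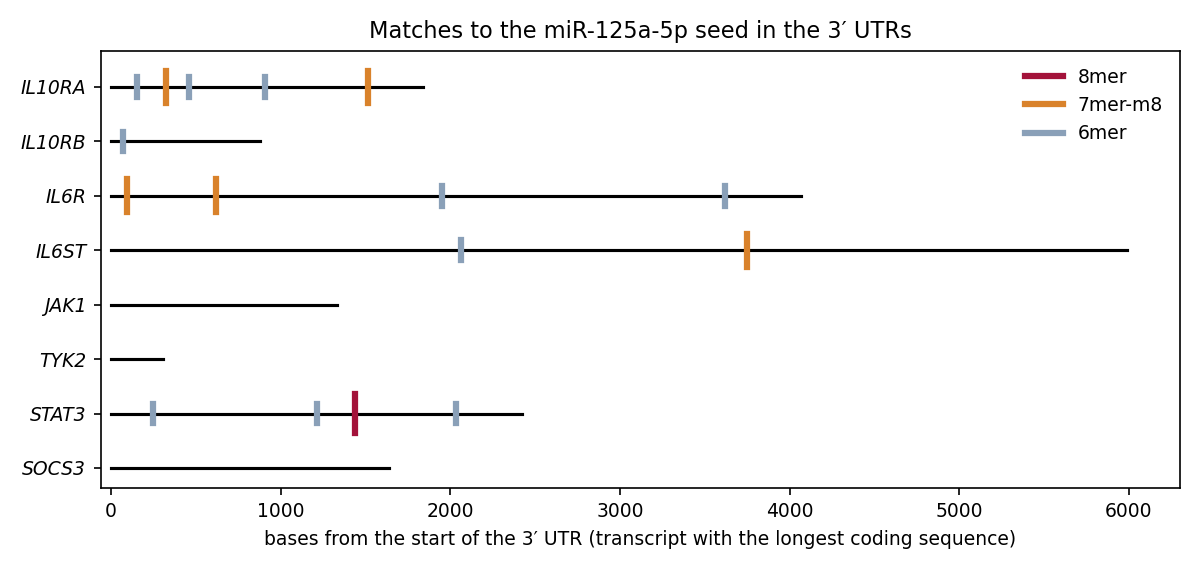
Matches to the miR-125a-5p seed along the 3′ UTR of each of the 8 genes, in bases from the start of the 3′ UTR of the transcript with the longest coding sequence. Black lines are the 3′ UTRs, and bars are matches, taller for longer classes; IL10RA holds 5 matches of any class, IL6R and STAT3 hold 4 each, and JAK1, TYK2 and SOCS3 hold 0.

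The plot of seed matches shows how unequal the 8 genes were. The 3′ UTR of IL10RA has 1838 bases with 5 matches of at least 6 bases, and that of IL6R has 4070 bases with 4. The STAT3 3′ UTR, of 2421 bases, also has 4 matches, and its 8mer was in 1 of 5 different annotated 3′ UTRs of the gene. The IL6ST 3′ UTR is the longest, at 5987 bases, and has 2 matches, while IL10RB has only a 6mer. Among 12841 tested genes with a 3′ UTR to search, 5.19% had an 8mer as best match in this transcript, 8.96% a 7mer-m8, and 5.39% had at least 2 matches of 7 or 8 bases, as IL10RA and IL6R do. In the coding sequence JAK1 had an 8mer, a class found there in 6.53% of searched genes, and IL10RA and TYK2 had a 7mer-m8, found in 10.1%. The choice of transcript matters for IL10RA: the longest annotated 3′ UTR, 1934 bases, belongs to a transcript with a coding sequence of only 267 bases against 1737 in the full receptor, and it holds 1 match of at least 7 bases. Each IL10RA window shown above was in 1 of 3 different annotated 3′ UTRs of the gene, so the longest holds neither window. The IL6ST window was in 3 of 6, and each IL6R window in 2 of 2.

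Library depth ran from 8256149 to 10257791 counts. Control library 1 stood apart along principal component 1 of log2 CPM (counts scaled to library size, here with the TMM factors of edgeR), at -38.2 against 1.14 to 16.3 for the others. Some fold changes are therefore also given without it, but others that moved without it are not. Monocytic and myeloid markers, 19 of 20 of them past the filter, summed to 4602 to 5379 CPM in the control group and 4765 to 4876 CPM in the miR-125a-5p group. Markers of T cells, erythroid, epithelial and fibroblast cells summed to at most 5.004 CPM, with CD3E, HBB, KRT18 and LUM among those at 0 in all libraries. The 4 NK cell markers summed to 28.6 to 39.2 CPM in the control group and 22.3 to 30.3 CPM in the miR-125a-5p group, and the 5 B cell markers to 54.0 to 86.5 CPM and 45.0 to 62.7 CPM. Most of these sums came from GNLY and PAX5, while MS4A1 and CD79A were at or near 0, and their part in the results was not tested.

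IL10RA, the ligand-binding chain of the IL-10 receptor, had the clearest difference of the 8. Its level was 124, 126 and 115 CPM in control libraries 1, 2 and 3, and 86.0, 86.2 and 86.1 CPM in miR-125a-5p libraries 1, 2 and 3. Every miR-125a-5p library was below every control library. The means were 122 ± 5.999 CPM (SD, n = 3) and 86.1 ± 0.110 CPM (SD, n = 3), a change of -29.4%. The 3 miR-125a-5p values lay closer together (coefficient of variation 0.128%) than counting error alone gives at this depth (3.66%), so their SD understates the error of the mean. edgeR's quasi-likelihood test, whose error is shared across genes, gave a log2 fold change of -0.50 (SE 0.098, 95% interval -0.70 to -0.30).

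That difference of IL10RA did not pass the threshold of 0.05 over all genes in edgeR (adjusted p = 0.0767, the sixth smallest p of 14731 tested genes). The call depended on the tool and filter: DESeq2 gave an adjusted p of 0.00197, and edgeR gave 0.00414 without the low-count filter and 0.0428 with a replicate block. It did not pass with voom of limma (adjusted p = 0.0796). Nor did it pass in edgeR with a filter at a mean of at least 1 CPM (0.0797) or with 2 other normalizations (0.0776 and 0.0946). The size hardly moved, from -0.54 to -0.48 with any 1 library left out, and it was -0.49 without control library 1. With 1 library left out, the edgeR adjusted p was 0.0516 to 0.393. The raw counts behind these values were 1042 to 1265 in control and 719 to 793 in miR-125a-5p libraries.

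IL10RB, the second chain of the IL-10 receptor, showed no such difference. It stood at 115, 117 and 117 CPM in control libraries 1, 2 and 3 and at 117, 108 and 117 CPM in miR-125a-5p libraries 1, 2 and 3, and the groups overlapped. The edgeR log2 fold change was -0.026 (SE 0.096, adjusted p = 0.986), with a 95% interval of -0.22 to 0.17. The 95% intervals of the 2 chains do not overlap. Both chains were chosen with this comparison known, and the difference between them was not tested, so nothing is read from that.

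IL6R, the ligand-binding chain of the IL-6 receptor, was 368, 402 and 388 CPM in control libraries 1, 2 and 3 and 337, 303 and 326 CPM in miR-125a-5p libraries 1, 2 and 3. Here too every miR-125a-5p library was below every control library. The means were 386 ± 17.2 and 322 ± 17.3 CPM (SD, n = 3 each), a change of -16.5%. The edgeR test gave a log2 fold change of -0.26 (SE 0.088, 95% interval -0.44 to -0.079), with an unadjusted p of 0.00672 and an adjusted p of 0.600, so this difference did not pass. It was -0.30 without control library 1 and -0.22 without miR-125a-5p library 2. At 2724 to 3746 counts per library, IL6R had the most counts of the 8 genes.

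IL6ST (gp130), the shared signalling chain, was 149, 141 and 143 CPM in control libraries 1, 2 and 3 and 141, 120 and 137 CPM in miR-125a-5p libraries 1, 2 and 3. The groups did not overlap, but the highest miR-125a-5p library and the lowest control library differed by less than counting error. The edgeR log2 fold change was -0.13 (SE 0.097, adjusted p = 0.913), with a 95% interval of -0.33 to 0.073. It was -0.062 without miR-125a-5p library 2.

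**Figure D2:**
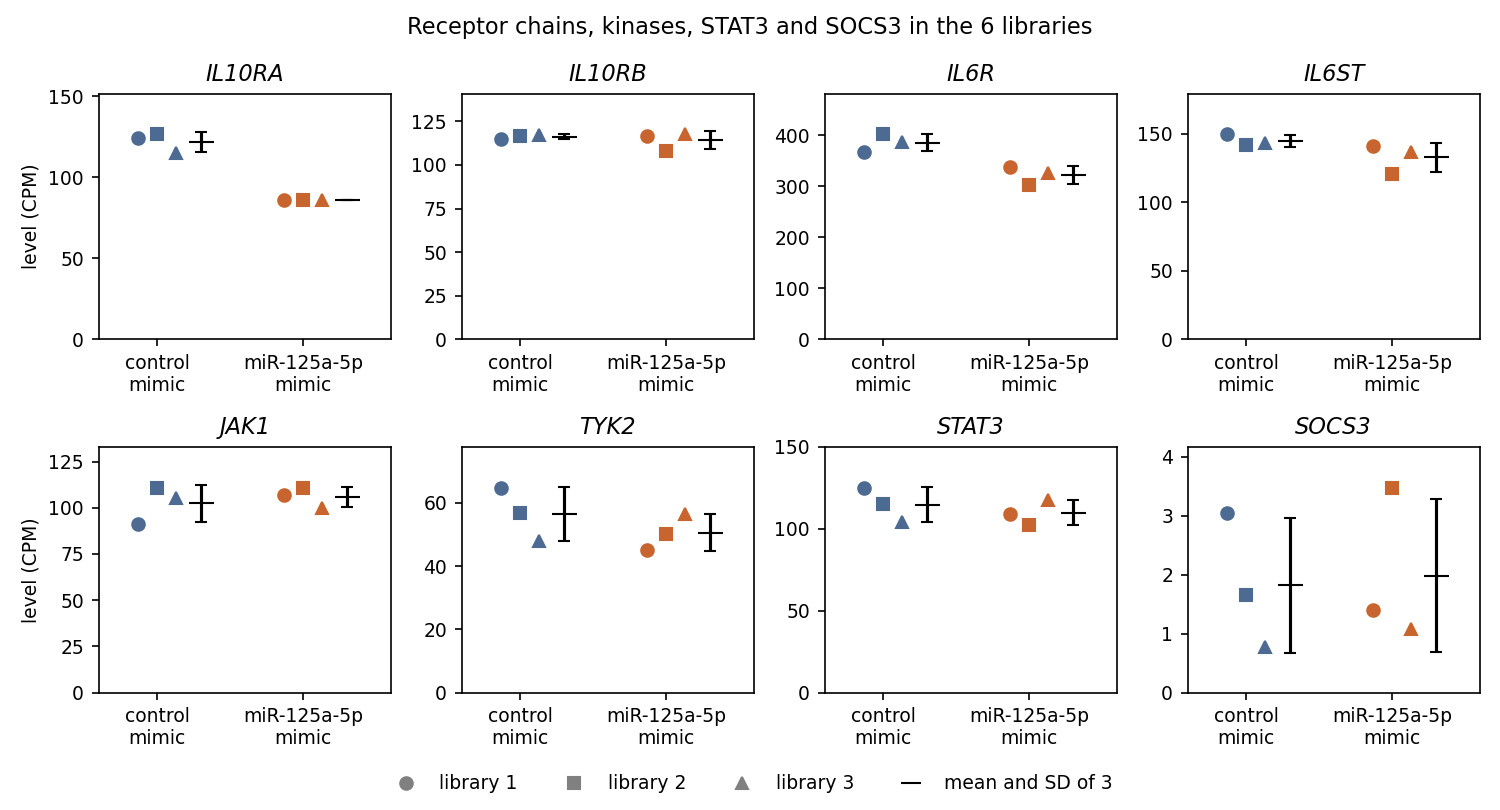
Level of each of the 8 genes in CPM (linear axis from 0) in the 3 control mimic libraries (blue) and the 3 miR-125a-5p mimic libraries (orange), with the mean and SD of each group in black. The groups are apart for IL10RA, IL6R and, narrowly, IL6ST, and overlap for the other 5; SOCS3 stays below 4 CPM.

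The kinases differed little beside their spread. JAK1, which serves both receptors, was 91.0, 111 and 105 CPM in control libraries 1, 2 and 3 and 107, 111 and 99.9 CPM in miR-125a-5p libraries 1, 2 and 3. Its edgeR log2 fold change was 0.050 (SE 0.10, adjusted p = 0.970, 95% interval -0.16 to 0.26), and it was -0.032 without control library 1, which was the lowest. TYK2, the kinase bound to IL10RB, was 64.8, 56.7 and 47.9 CPM in control libraries 1, 2 and 3 and 45.1, 50.1 and 56.5 CPM in miR-125a-5p libraries 1, 2 and 3. The groups of both kinases overlapped. For TYK2 the edgeR log2 fold change was -0.16 (SE 0.13, adjusted p = 0.918, 95% interval -0.42 to 0.10), and without control library 1 it was -0.051.

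STAT3, the factor on which both receptors converge, was 125, 115 and 104 CPM in control libraries 1, 2 and 3. In miR-125a-5p libraries 1, 2 and 3 it was 109, 102 and 118 CPM. The groups overlapped, and the edgeR log2 fold change was -0.067 (SE 0.10, adjusted p = 0.961, 95% interval -0.28 to 0.15), or -0.00290 without control library 1. Of the 8 genes it was the one with an 8mer in the 3′ UTR. IL10RA, whose 3′ UTR holds 7mer-m8 and 6mer matches and no 8mer, was at -0.50. Searched genes with an 8mer as best match in this 3′ UTR had a median log2 fold change of -0.078. Those with a 7mer-m8 as best match had a median of -0.027. Which annotated 3′ UTRs these cells use was not measured, and any part of the sites in the STAT3 and IL10RA values was not tested.

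SOCS3, the feedback inhibitor, had few counts and a wide spread between libraries. It had 31, 14 and 7 counts in control libraries 1, 2 and 3 and 12, 32 and 9 counts in miR-125a-5p libraries 1, 2 and 3, or 0.773 to 3.48 CPM. The group means were 1.82 ± 1.14 and 1.99 ± 1.301 CPM (SD, n = 3 each). A coefficient of variation of 62.7% and 65.4% within the groups was well above the counting error of 24.0% and 23.8%. The edgeR log2 fold change was 0.12 (SE 0.54, adjusted p = 0.986), with a 95% interval of -0.99 to 1.23, and it ranged from -0.56 to 0.72 with 1 library left out, so no direction can be given.

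**Figure D3:**
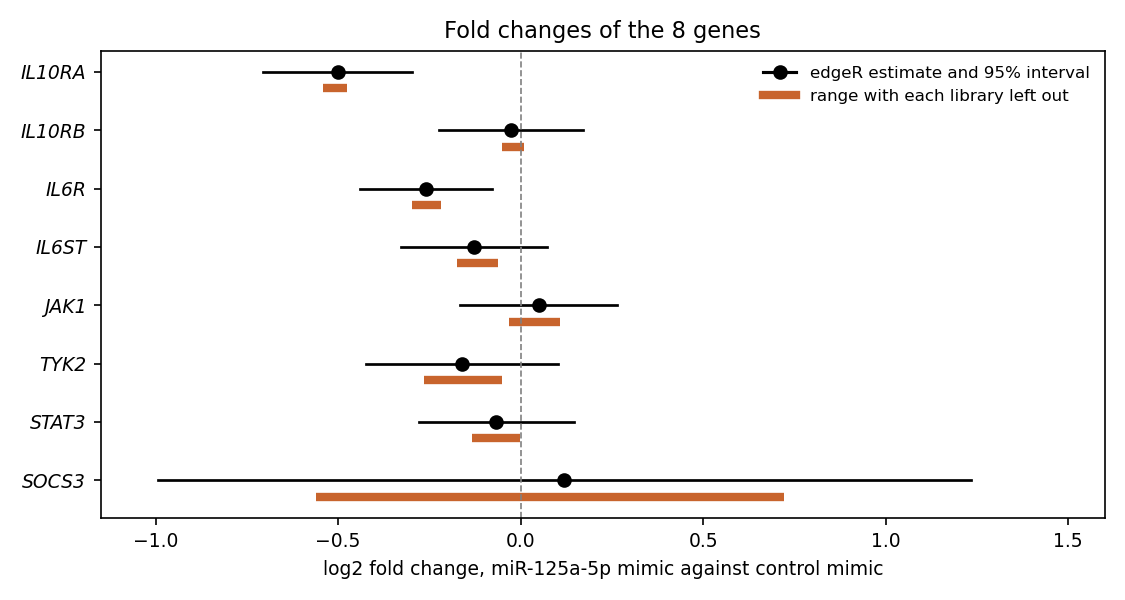
Log2 fold change (miR-125a-5p mimic against control mimic) of the 8 genes, with the edgeR estimate and 95% interval in black and the range over fits with each library left out in orange. The intervals of IL10RA (-0.70 to -0.30) and IL6R (-0.44 to -0.079) lie below 0, and the others span it.

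Read against the whole table, 0 of the 8 genes were called at an adjusted p under 0.05 in edgeR, where 0.0272% of tested genes were called lower and 0% higher. By edgeR 2 of the 8, IL10RA and IL6R, were lower at an unadjusted p under 0.05, against a background of 3.22%. DESeq2 called 1 of the 8 at an adjusted p under 0.05, IL10RA, among 11 genes that it called lower in the whole table. The groups did not overlap for 3 of the 8, all lower, against 5.90% of tested genes that were apart and lower. Since the genes were chosen with this comparison known, nothing is read from those shares. The median log2 fold change of the 8 was -0.097, against 0.0011 over all tested genes.

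Ratios of receptor chains within a library do not depend on how libraries are scaled. As CPM per kilobase of annotated exon, IL10RA stood to IL10RB at 0.607, 0.608 and 0.550 in control libraries 1, 2 and 3. In miR-125a-5p libraries 1, 2 and 3 that ratio was 0.413, 0.447 and 0.411, below every control library. The ratio of IL6R to IL6ST was 3.54, 4.09 and 3.89 in control libraries 1, 2 and 3 and 3.44, 3.63 and 3.43 in miR-125a-5p libraries 1, 2 and 3, with overlap between control library 1 and miR-125a-5p library 2. The ratio of IL6R to IL10RA went the other way, from 3.98 ± 0.256 to 4.70 ± 0.258 (SD, n = 3 each), with no overlap. The differences between groups in these ratios were not tested.

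**Figure D4:**
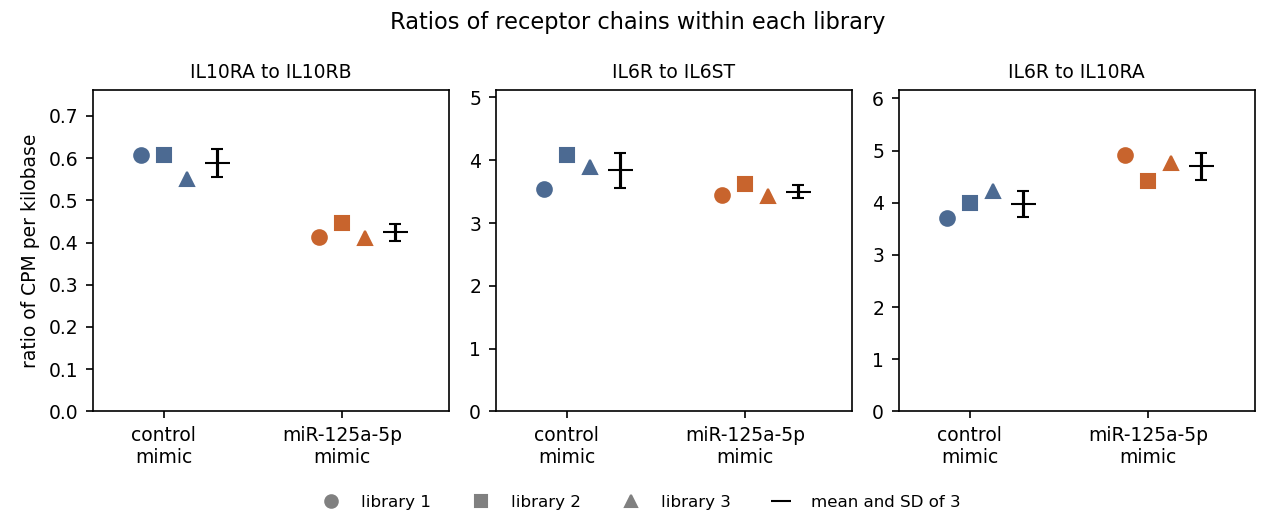
Ratio of CPM per kilobase of exon for pairs of receptor chains in each library (linear axes from 0), with the mean and SD of 3 libraries in black. The IL10RA to IL10RB ratio is 0.550 to 0.608 in control and 0.411 to 0.447 in miR-125a-5p libraries, while the IL6R to IL6ST ratios of the groups overlap.

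As levels per kilobase of exon in control libraries, IL6R was the highest of the 8 at 59.8 ± 2.66 (SD, n = 3), followed by IL10RB at 25.6 ± 0.310. JAK1 (16.2 ± 1.62), IL6ST (15.6 ± 0.446) and IL10RA (15.0 ± 0.740) came next and did not differ beyond their spread. STAT3 (13.03 ± 1.203) lay below each of these by more than either SD, TYK2 was at 8.34 ± 1.24, and SOCS3 was lowest at 0.667 ± 0.418 CPM per kilobase. The order between the first and the last depends on the length used. STAT3 was above JAK1 and IL6ST with the transcript of the longest coding sequence (22.8 ± 2.10 against 20.3 ± 2.03 and 16.0 ± 0.457), and above IL10RA too with the longest transcript. IL10RA with the transcript of the longest coding sequence was 33.0 ± 1.62, next after IL6R (65.2 ± 2.90) and IL10RB (59.2 ± 0.718). IL6R was first and SOCS3 last under all 3 length rules. The ligands themselves were almost silent, with IL6 at 0 to 3 counts and IL10 at 0 to 2 counts per library.

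The 3 genes whose pattern over the 6 libraries was most like that of IL10RA were PACRGL, CLP1, a kinase of RNA 5′ ends, and PTPRJ, a receptor tyrosine phosphatase of leukocytes. Likeness was the root mean square difference of log2 CPM centred on each gene's mean, over 6 libraries and 11596 genes with a mean of at least 5 CPM. It was 0.041, 0.064 and 0.064. PTPRJ had means of 285 ± 21.0 and 207 ± 11.9 CPM in the control and miR-125a-5p groups (SD, n = 3 each). The edgeR estimate was -0.46 (adjusted p = 0.0870). PACRGL and CLP1 have far fewer counts, 62 to 117 and 95 to 161 per library, so their closeness is less certain.

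Other genes of the route were described in 6 lists of 124 genes, of which 101 passed the count filter. By edgeR 0 of the 101 were called at an adjusted p under 0.05. At an unadjusted p under 0.05, 6 were lower (background 3.22%) and 3 higher (background 2.69%). The groups did not overlap in 14 lower genes (background 5.90%) and 7 higher (background 5.31%). DESeq2 called 0 in each list too. The lists were chosen with earlier results of these data known, so nothing is read from their counts.

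Of the cytokines that use gp130 or belong to the IL-10 family, 3 of 17 passed the filter. These were CNTF, a neurotrophic cytokine (6.38 ± 0.446 and 7.58 ± 0.432 CPM in control and miR-125a-5p libraries), EBI3, a subunit of IL-27 (4.41 ± 0.212 and 3.92 ± 0.699 CPM), and IL24 (2.62 ± 0.552 and 2.25 ± 0.723 CPM). Their edgeR adjusted p were 0.938 to 0.970. The groups overlapped for EBI3 and IL24, and were apart and higher for CNTF (background 5.31%).

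Of 24 other receptor chains, 18 passed, 14 of them negative (background 49.8% of all tested genes), at a median log2 fold change of -0.093. OSMR, which pairs with gp130 in the oncostatin M receptor, was at 5.89 ± 1.19 and 3.39 ± 1.52 CPM, a log2 fold change of -0.79 (edgeR adjusted p = 0.799) and the 1 chain at an unadjusted p under 0.05 (background 3.22% lower). It was -0.47 without miR-125a-5p library 1. IFNAR2, a type I interferon receptor chain, was at 134 ± 9.88 and 120 ± 6.17 CPM and holds an 8mer in the longest 3′ UTR, but no match in that of the transcript with the longest coding sequence. IL13RA1, a chain of the IL-4 and IL-13 receptor, was at 71.1 ± 3.03 and 80.2 ± 1.74 CPM. The groups did not overlap for OSMR and IFNAR2, both lower (background 5.90%), and for IL13RA1, which was higher (background 5.31%). IL22RA1, which pairs with IL10RB and also holds an 8mer, was barely detected, at 1.42 ± 0.452 and 0.706 ± 0.706 CPM. None of the 18 passed in edgeR.

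Of the other JAK kinases and STAT factors 7 of 8 passed the filter, with a median log2 fold change of -0.11 (-0.059 without miR-125a-5p library 3). By edgeR 0 were at an unadjusted p under 0.05 (background 3.22% lower and 2.69% higher). JAK2, a kinase of gp130, was at 161 ± 8.43 and 145 ± 21.8 CPM, and STAT4, which acts downstream of IL-12, at 5.87 ± 0.272 and 4.38 ± 0.877 CPM. STAT5B, a factor activated by growth-factor-type cytokines, was at 35.6 ± 3.15 and 42.6 ± 0.620 CPM, 0.26 higher on the log2 scale (edgeR adjusted p = 0.843). STAT5B holds an 8mer. The groups did not overlap for STAT4, which was lower (background 5.90%), and for STAT5B, which was higher (background 5.31%).

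Among inhibitors of the route 17 of 19 passed the filter, 10 negative (background 49.8%) and 7 positive, with a median log2 fold change of -0.015. SOCS6, a SOCS-box protein, had the smallest p, at 19.4 ± 0.802 and 27.0 ± 3.20 CPM, a log2 fold change of 0.47 (unadjusted p = 0.00526 and adjusted p = 0.555 by edgeR). PTPN11, the phosphatase SHP2 that docks on gp130, was at 234 ± 10.2 and 256 ± 9.64 CPM, and SH2B3, an adaptor that restrains JAK2, at 103 ± 10.9 and 93.1 ± 6.41 CPM. SOCS4, which holds an 8mer, was at 39.1 ± 3.48 and 39.0 ± 2.41 CPM.

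Of genes for receptor shedding and for partners of STAT3, 20 of 20 passed, 13 negative (background 49.8%) and 7 positive. Their median log2 fold change was -0.047. RHBDF2 encodes iRhom2, which carries the sheddase ADAM17 to the cell surface, where ADAM17 releases soluble IL6R. It was at 38.8 ± 1.18 and 27.1 ± 4.21 CPM, lower in each miR-125a-5p library, and its log2 fold change was -0.52 (unadjusted p = 0.00114 and adjusted p = 0.390 by edgeR). LYN, a Src family kinase of myeloid cells, was at 230 ± 18.6 and 192 ± 16.8 CPM, a log2 fold change of -0.27. KPNA3, an importin of nuclear transport, was at 73.3 ± 7.74 and 92.5 ± 9.16 CPM, a log2 fold change of 0.34, and ELP2, an Elongator subunit also known as a STAT3-binding protein and named after its value was seen, at 49.7 ± 0.839 and 58.7 ± 3.71 CPM. These 4, of which 2 were lower and 2 higher, were the genes of the list at an unadjusted p under 0.05 (background 3.22% lower and 2.69% higher). The groups did not overlap for the same 4 (background 5.90% lower and 5.31% higher).

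The 36 genes known to be induced by STAT3 or IL-10 all passed the filter, and 29 of them had negative fold changes (80.6%, against 49.8% of all tested genes), with a median of -0.18 on the log2 scale. The groups were apart and lower in 8 of them (background 5.90%) and apart and higher in 0 (background 5.31%). The list was chosen with earlier results of these data known, so nothing is read from these shares. The list median rested in part on control library 1, without which it was -0.078. TNFRSF1B, a receptor of tumour necrosis factor, was at 105 ± 8.04 and 77.6 ± 11.5 CPM, a log2 fold change of -0.44 (edgeR adjusted p = 0.373). DDIT4, an inhibitor of mTOR signalling, was at 13.6 ± 3.13 and 7.22 ± 1.85 CPM, a log2 fold change of -0.92 (edgeR adjusted p = 0.373). MCL1, an anti-apoptotic BCL2 family member with an 8mer, was at 265 ± 35.0 and 230 ± 12.9 CPM, a log2 difference of -0.21, or -0.094 when control library 1 was left out. These 3 were the genes of the list at an unadjusted p under 0.05 (background 3.22% lower). Without the low-count filter TNFRSF1B and DDIT4 passed (edgeR adjusted p = 0.0380 and 0.0320), 2 of 41 genes then called lower in the whole table.

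**Figure D5:**
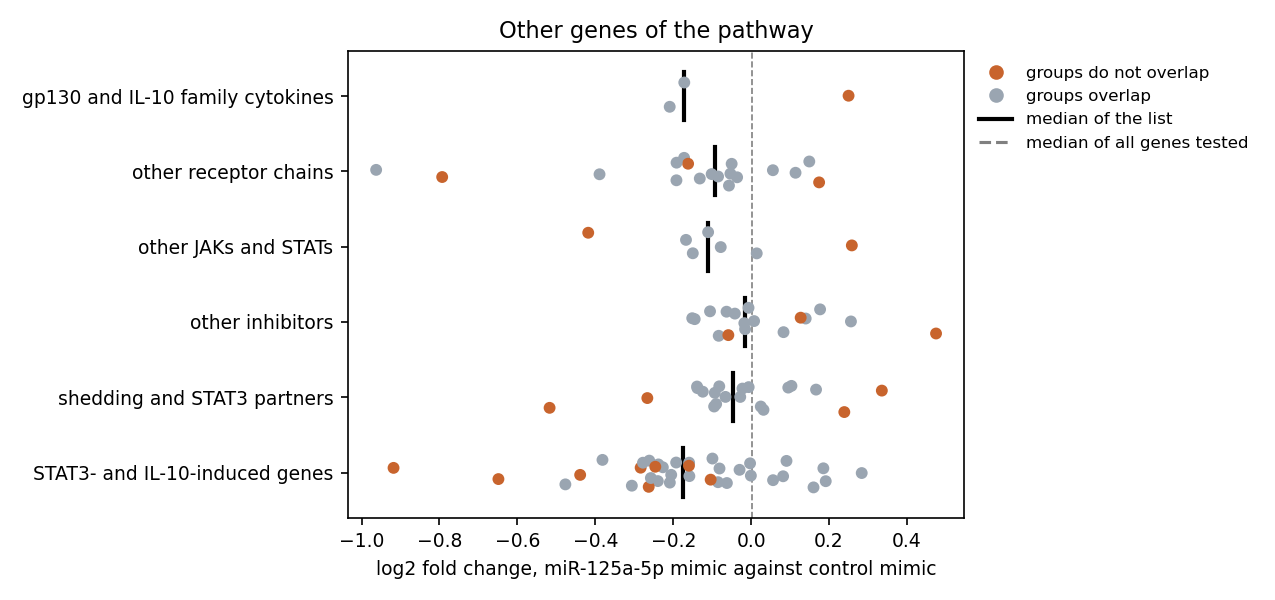
Log2 fold change (miR-125a-5p mimic against control mimic) of each tested gene of the 6 pathway lists, in orange where the libraries of the 2 groups do not overlap and grey where they do. Black bars are list medians, from -0.18 for STAT3- and IL-10-induced genes to -0.015 for inhibitors, and the dashed line is the median of all tested genes, 0.0011.

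IL10RA and IL6R were also set beside genes with at least as many sites of 7 or 8 bases, of any class. The sites of that length in IL10RA and IL6R are all 7mer-m8. Searched genes with a 7mer-m8 as best match had a median log2 fold change of -0.027, and those with an 8mer -0.078. The 692 tested genes with at least 2 matches of 7 or 8 bases in the 3′ UTR of the transcript with the longest coding sequence had a median log2 fold change of -0.060, against 0.0040 over all searched genes. The groups were apart and lower in 77 of them (11.1%, against 5.90% of all tested genes) and apart and higher in 34 (4.91%, against 5.31% of all tested genes). All tested genes include those without a 3′ UTR to search. A log2 fold change as low as that of IL10RA was seen in 39 of the 692 (5.64%, against 4.20% of all tested genes), and one as low as that of IL6R in 126 (18.2%, against 12.7% of all tested genes). Genes are not independent replicates, and no test was made of these shares.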

How the data were processed

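The data are raw counts per NCBI gene identifier for 6 libraries, in 1 table as the authors deposited it. bcl2fastq, TopHat, edgeR and the build hg19 are named per the submitters' processing notes; for the counting tool, annotation and strand setting no source was at hand (not given in the sources used here), so reads of overlapping genes or near-identical copies cannot be told apart. Of the 8 genes, JAK1 alone shared annotated exon bases with another gene of the table (RAVER2, 4 bases). Columns were matched to libraries by name, and symbols taken from RefSeq (GRCh38.p14) for 99.5% of rows. The 8 genes and the 6 lists were chosen with earlier results of these data known.

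Counts were tested with edgeR 4.0.16 (R 4.3.3): filterByExpr kept 14731 of 21274 genes with any count, TMM factors scaled the libraries, and glmQLFit and glmQLFTest took no covariate. P-values were adjusted by Benjamini-Hochberg over all tested genes, with a threshold of 0.05. SE is the fold change divided by the square root of F, and intervals use the moderated degrees of freedom. Alternatives were 2 other normalizations, 2 filters, DESeq2 1.42.0, voom of limma 3.58.1, a replicate block, and each library left out. The fits were tested on simulated data with larger changes than those of the 8 genes. Recovery at the sizes of the 8 genes was not tested. 3′ UTRs of at least 20 bases, lengths and coordinates came from GENCODE 29 (GRCh38), which is not the build of the counts. The text names the 8 genes, in each list any called gene, the 3 smallest p and those with an 8mer in the longest 3′ UTR, and the 3 genes most like the member with the smallest p.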

Additional observations from a re-analysis of the deposited data

How the results depend on the processing

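Of the fold changes of the 8 genes, only that of IL10RA crossed the threshold under any alternative: its log2 fold change was -0.50 with DESeq2, without the low-count filter and with the replicate block (adjusted p = 0.00197, 0.00414 and 0.0428). The replicate numbers showed no pairing of the libraries: deviations of same-numbered libraries correlated at 0.056, 0.014 and -0.016, and control libraries 2 and 3 did not correlate best with their own numbers. With the replicate block 9 genes were called lower in the whole table. The number called lower was 41 without the low-count filter, 11 with DESeq2, 7 at an adjusted p of 0.10 and 3 to 14 with 1 library left out, against 4. The number called higher was 11 without the filter, 2 with DESeq2 and 0 to 2 with 1 library left out, against 0. Without the filter 2 STAT3- or IL-10-induced genes were called lower.

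Leaving out 1 library at a time gave log2 fold changes of -0.050 to 0.0095 for IL10RB, -0.032 to 0.11 for JAK1, -0.56 to 0.72 for SOCS3, -0.40 to 0.023 for IL24 and -0.079 to 0.038 for SOCS4, so these have no stable direction, and SOCS4 was at 0.0010 with upper quartile scaling. List medians were then -0.15 to -0.071 for receptor chains, -0.16 to -0.059 for JAK kinases and STAT factors, -0.047 to 0.028 for inhibitors, -0.057 to -0.019 for shedding and STAT3 partners and -0.23 to -0.078 for STAT3- and IL-10-induced genes, the last at -0.16 with voom.

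Per kilobase of the longest transcript, control levels were 18.2 for IL10RA, 54.5 for IL10RB, 65.2 for IL6R, 20.3 for JAK1, 12.99 for TYK2 and 22.8 for STAT3. With the transcript of the longest coding sequence, a length rule added after seeing the data, they were 33.0, 59.2, 65.2, 20.3, 14.2 and 22.8. In the shortest annotated 3′ UTR IL6ST and STAT3 had 0 matches of 7 or 8 bases, and IL10RA had 2 in the 3′ UTR of the longest coding sequence, also added, against 1 in the longest. SOCS3, at 7 to 32 counts per library, is limited by a spread between libraries beyond counting error as well as by depth.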
